A study of Mus musculus with 80 samples.

Results

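The livers described here came from 10 wild-type mice (genotype C57BL/6J - wild-type) killed 12 h after a single intraperitoneal injection. Of these, 5 mice had received carbon tetrachloride (CCl4, 0.3 ml per kg of body weight, given as a 3% solution by volume in olive oil) and 5 had received the olive oil vehicle. They were chosen by their titles, from a series of 80 livers that also holds knockout mice lacking Adamts12, a secreted metalloprotease, and mice killed at 4 h, 24 h and 7 days. All 10 mice were 8-week-old females, carried both wild-type Adamts12 alleles and each gave 1 library from whole liver. The sources used here do not give the hour of injection, the feeding state or the lobe sampled, and they describe no histology or serum enzyme for these mice. The labelled tissue was checked against 12 genes that define hepatocytes, and Alb, the gene of albumin, was read at 2312116 to 4236493 normalised counts in the vehicle livers and 951199.5 to 2381932 in the CCl4 livers. Adamts12 itself was low in both groups, at 14.2 to 26.7 in vehicle livers and 11.4 to 18.9 in CCl4 livers, with a log2 difference of -0.39 ± 0.41 that did not pass the test (adjusted p = 0.43 in limma).

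CCl4 is a solvent that hepatocytes around the central vein turn into a reactive radical by means of cytochrome P450 2E1, the product of Cyp2e1. The radical binds to and peroxidises lipids and proteins, above all in the endoplasmic reticulum, and kills those pericentral cells over the following day. The surviving hepatocytes are known for several stress programmes. Heat shock factor 1 raises cytosolic chaperones. The unfolded protein response raises chaperones of the endoplasmic reticulum. The integrated stress response, through the factors ATF4 and CHOP, raises amino acid supply. NRF2 raises glutathione synthesis and detoxifying enzymes. A mouse liver damaged in this way later regrows by division of its remaining hepatocytes.

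A value below is a normalised read count, meaning reads per gene divided by a size factor of the library. A change is the difference of the group means of log2(value + 1) in limma, CCl4 minus vehicle, with its standard error, from a fit over 40 wild-type livers. A gene is said to have risen or fallen where the Benjamini-Hochberg adjusted p was under 0.05. Between times, a change counted as larger or smaller is so with its sign, at an adjusted p under 0.05 for the difference. The added 1 makes changes of low genes too small. The 10 libraries held 19711204 to 64487370 reads, so that 3 reads came to 1.35 to 5.72 normalised counts. Normalised counts summed to 24961906 to 28917690 in CCl4 livers and to 35561562 to 42663546 in vehicle livers, and the 10 most abundant genes took 16.3 to 18.9% and 26.1 to 26.7% of them. Scaling to the library total in place of the size factor moved the median change of all genes from -0.05 to 0.46, so counts on that scale are given beside those of a gene list where they differ by much.

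Vehicle replicate 1 and CCl4 replicate 2 stood apart from their groups in acute phase and lipid genes. Over the 28 tested acute phase genes, vehicle replicate 1 summed to 624617 counts where the rest of its group summed to 3312794 to 4605551, and CCl4 replicate 2 to 492028 where the rest of its group summed to 1032594 to 1539638. Over 22 lipogenic genes the same livers were the highest of their groups, with 268880 in vehicle replicate 1 against 95041 to 126733, and 218771 in CCl4 replicate 2 against 65614 to 78065. Without both livers 4192 genes rose and 4360 fell, and values without them are given where a result turned on them. CCl4 replicate 1 held more cholangiocyte and red cell RNA than the rest of its group. Its 11 cholangiocyte markers summed to 17657 counts, against 4107 to 9695 in the other 4 CCl4 livers and 2953 to 6224 in the vehicle livers.

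At 12 h, 8548 of 14534 tested genes differed between CCl4 and vehicle livers (58.8%). Of all tested genes, 4243 rose (29.2%) and 4305 fell (29.6%), and 1801 rose (12.4%) and 2217 fell (15.3%) by at least 2-fold. In 5514 genes (37.9%) the 5 CCl4 livers and the 5 vehicle livers did not overlap. On the library-total scale 7008 genes rose and 1890 fell. Among the genes named below as fallen, Alb, Arntl, Atf5, Axin2, Casp6, Clec4f, Ddit4, Edem1, Errfi1, Fkbp5, Hgf, Mki67 and Wnt2 did not pass the test on that scale, and Gclm was higher there. With quantile normalisation Alb, Atf5, Errfi1 and Gclm did not pass, and in a fit of the compared groups alone Alb and Ly6c2 did not. Falls in lists that mostly rose were few, and on the library-total scale none passed among the heat shock, integrated stress response, NRF2, replication and MAP kinase feedback genes. A gene group described below therefore stands out from the whole table only where its share of risen or fallen members is well above 29.2% or 29.6%, and that share is given as a description of lists of 7 to 48 tested genes. Against 4 h, 14.4% of all tested genes had a higher change at 12 h and 16.8% a lower one, and against 24 h 8.57% and 5.06%. Counts of list members that differ between times are to be read beside these shares. Such list counts were not taken on the library-total scale, where 4822 of all genes were higher and 846 lower than at 4 h. All 12 hepatocyte markers fell, 9 of them on the library-total scale and 5 with quantile normalisation, and summed to 1780826 to 3637076 counts in CCl4 livers against 4738037 to 6378142 in vehicle livers. In a whole-liver sample fewer cells of a type and less RNA per cell cannot be told apart, and the part of this lower hepatocyte level in the falls described below was not tested.

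**Figure D1:**
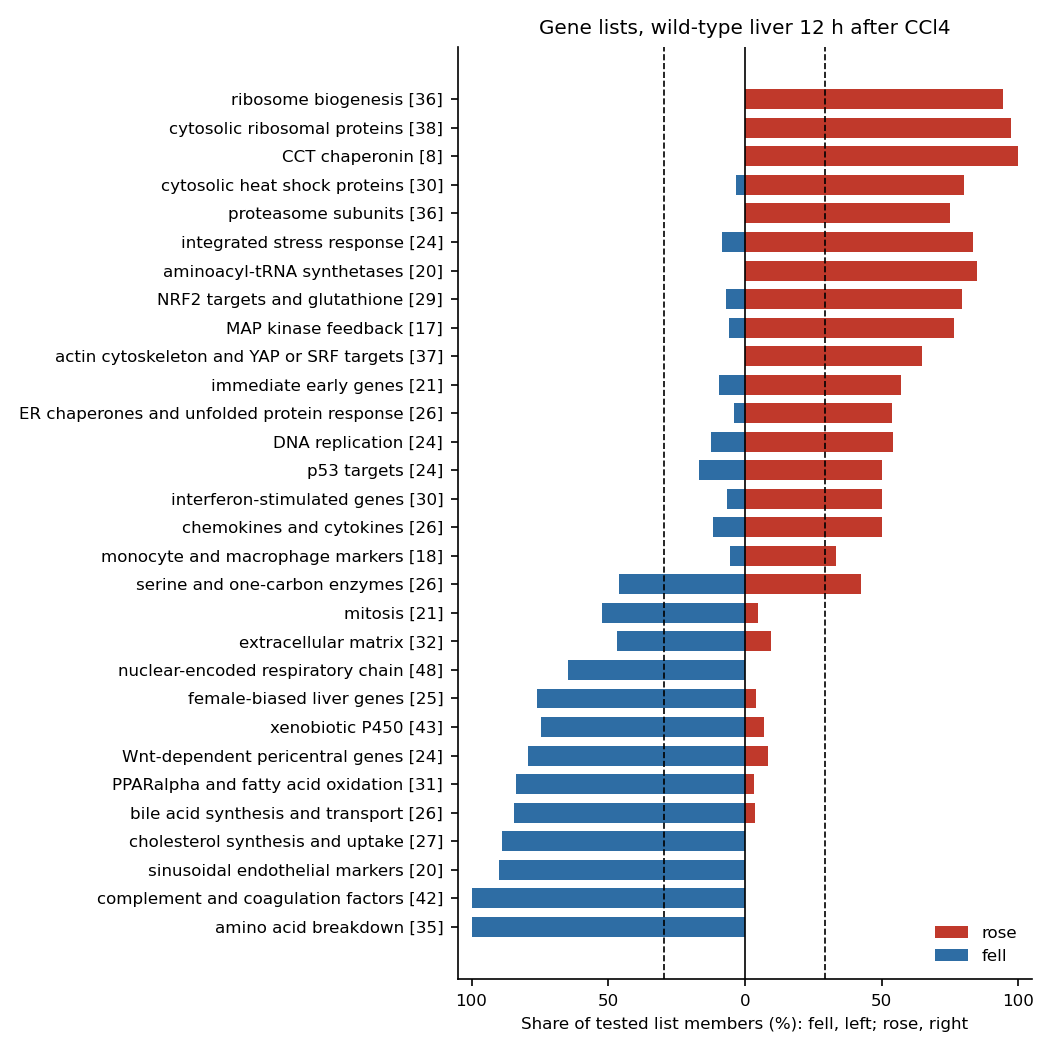
Share of tested members of 30 gene lists that rose (right, red) or fell (left, blue) 12 h after CCl4 in wild-type liver, in percent of the list's tested genes, with the number tested in brackets. Dashed lines mark the shares over all 14534 tested genes, 29.2% risen and 29.6% fallen. Ribosome, chaperonin and stress lists lie to the right, and amino acid, clotting and lipid lists to the left.

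The largest rise was that of Sprr1a (ENSMUSG00000050359, chromosome 3, 92483952 to 92485895, minus strand in GRCm38), which encodes a small proline-rich protein of the cornified envelope of skin and stressed epithelia. Sprr1a was read at 38796, 45055, 77675, 43899 and 48226 normalised counts in CCl4 replicates 1 to 5 and at 1908, 1.7, 1.7, 1.9 and 5.9 in vehicle replicates 1 to 5. The groups did not overlap, but vehicle replicate 1 was far above the other vehicle livers. Its log2 change was 11.97 ± 1.24 with all 10 livers and 13.79 ± 0.97 without vehicle replicate 1. Atf3, a stress-induced transcription factor of the ATF family, followed with 12603, 22492, 23034, 18996 and 14192 counts in the CCl4 livers and 555, 52.1, 29.2, 47.7 and 83.1 in the vehicle livers. Every CCl4 liver was above every vehicle liver, and the change was 7.76 ± 0.57.

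The other genes among the 15 largest rises held several known jobs. Hspb1 (small heat shock protein 27, change 6.82 ± 0.76), Dusp5 (a nuclear phosphatase of ERK, 6.36 ± 0.43) and Bmp8b (a bone morphogenetic protein, 6.56 ± 0.66) belong to stress and growth signalling. Phgdh (6.61 ± 0.56) and Psat1 (6.39 ± 0.50) encode the first steps of serine synthesis, and Slc7a11 (5.86 ± 0.83) encodes the cystine importer that feeds glutathione synthesis. Gsta1 (7.14 ± 0.78) and its near-identical neighbour Gm3776 (7.59 ± 0.84) encode alpha-class glutathione transferases, and reads may be split between them. Elovl7 (5.83 ± 0.45) encodes a fatty acid elongase and Rin1 (5.96 ± 0.50) a Ras effector. Foxred2, Pwwp3b and the unnamed Gm49774 changed by 6.34, 7.45 and 7.42.

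In 14 of these 15 genes vehicle replicate 1 was the highest of the vehicle livers. Its excess over the mean of the other 4 vehicle livers came to between -0.846% and 3.76% of the CCl4 mean, with a median of 2.52%. Over the 66 genes with a rise of at least 4 on the log2 scale and a CCl4 mean of at least 100, vehicle replicate 1 was the highest vehicle liver in 49, with a median excess of 2.53% and a range of -11.5 to 14.6%. What gave that liver these reads was not tested.

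**Figure D2:**
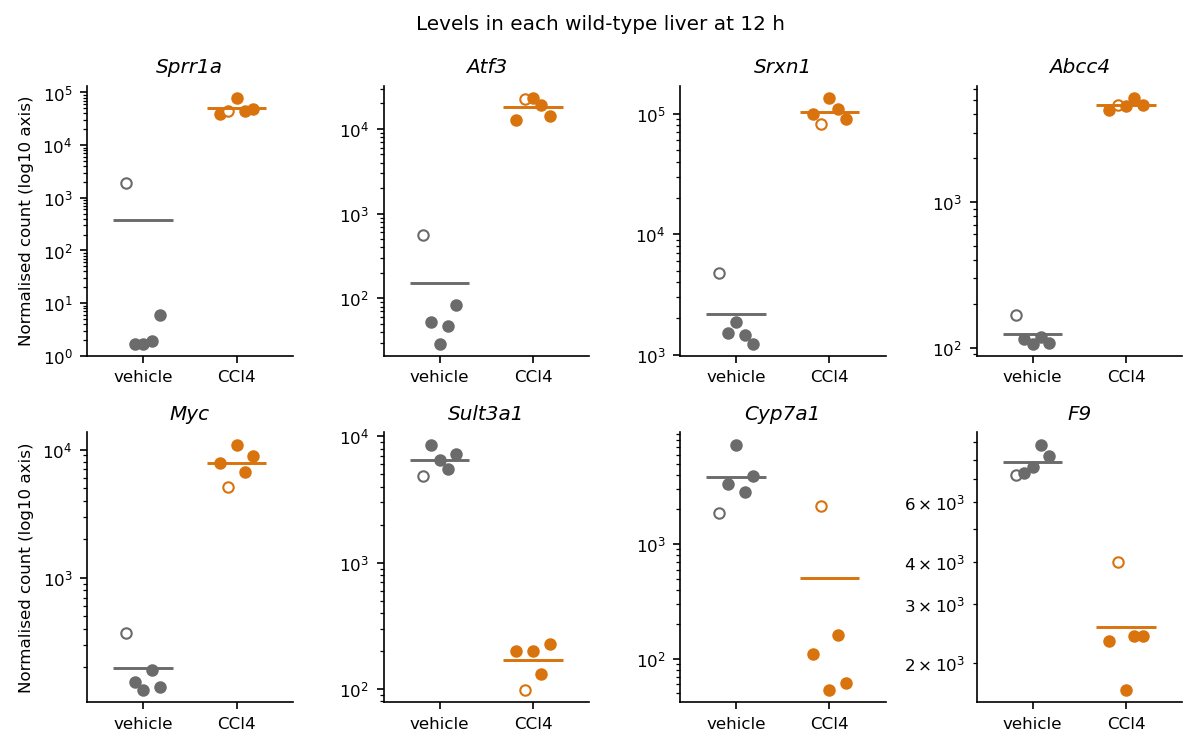
Normalised counts of 8 genes in each of the 10 livers on a log10 axis, 5 vehicle livers (grey) and 5 CCl4 livers (orange), with the group mean as a bar. Vehicle replicate 1 and CCl4 replicate 2 are drawn as open symbols. In Sprr1a, Atf3, Srxn1, Abcc4 and Myc the groups are wide apart, and in each of them vehicle replicate 1 is the highest vehicle liver. In Cyp7a1 CCl4 replicate 2 lies among the vehicle livers.

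Chaperones of the cytosol and mitochondria were higher in the CCl4 livers. Of 30 tested genes of the heat shock list 24 rose, 18 of them by at least 2-fold, and 1 fell, with a median change of 1.19. The constitutive chaperone gene Hspa8 reached 207234, 188265, 301409, 240264 and 222602 counts in CCl4 livers against 50989, 23008, 30934, 27934 and 29099.5 in vehicle livers, a change of 2.88 ± 0.33. Hsp90ab1, a subunit of HSP90, rose by 1.94 ± 0.21, and the HSP40 co-chaperone Dnajb1 by 2.33 ± 0.28. Hsf1, the transcription factor that drives this set, rose by 1.43 ± 0.15. The only fall was that of Fkbp5, a co-chaperone of steroid receptors, at -1.02 ± 0.26. All 8 genes of the CCT chaperonin, the ring that folds actin and tubulin, rose, between 1.02 for Cct6a and 1.63 for Cct7.

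The mitochondrial chaperonin pair Hspe1 and Hspd1 lie head to head on chromosome 1. Hspe1 was read at 31843, 17107, 25962, 19341 and 20776 counts in CCl4 livers and at 5524, 2768, 2581, 3275 and 3091 in vehicle livers, a rise of 2.76 ± 0.25, and Hspd1 rose by 1.80 ± 0.16. A search of RefSeq promoter windows (GRCm38.p6, 250 bases before to 50 after each start, both strands) for the heat shock element, read as GAA, 2 bases, TTC, 2 bases and GAA or as its complement with TTC outermost, found it in 0.603% of 32817 windows and in 0.552% of the 10876 tested genes with a window. Among 24 heat shock genes with a window 5 held it (20.8%). The pair's windows are shown because both genes rose and share the element, with the matched letters in capitals over the 160 bases before the start, 5′ to 3′ on the gene's strand.
Hspe1, chr1:55087988-55088147, plus strand: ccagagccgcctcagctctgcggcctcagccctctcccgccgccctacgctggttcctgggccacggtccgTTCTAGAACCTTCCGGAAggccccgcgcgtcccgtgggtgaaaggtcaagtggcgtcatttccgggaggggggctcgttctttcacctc
Hspd1, chr1:55087933-55088092, minus strand: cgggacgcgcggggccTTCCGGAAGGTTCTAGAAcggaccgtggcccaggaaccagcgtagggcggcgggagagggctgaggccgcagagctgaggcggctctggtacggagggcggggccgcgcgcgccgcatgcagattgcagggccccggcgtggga
The capitals are the same bases read from opposite strands, where matches of both spellings overlap. They lie -89 to -72 from the Hspe1 start and -144 to -127 from the second of 2 annotated Hspd1 starts.

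The proteasome, which degrades ubiquitin-tagged proteins, moved in the same direction by less. Of 36 subunit genes 27 rose and none fell, with a median of 0.53, and all 36 rose on the library-total scale. Adrm1, a ubiquitin receptor of the 19S cap, had the largest rise of those named by the rule (1.32 ± 0.15), and Psmd4 and Psma5 rose by 0.95 and 0.93. At 4 h 34 of the 36 had risen and at 24 h 5, where over all tested genes 44.2% changed at 4 h (23.3% risen, 20.8% fallen) and 51.5% at 24 h (26.4% risen, 25.2% fallen). In 19 subunits the change was larger at 12 h than at 24 h by the test of that difference, and in 7 it was smaller than at 4 h. Autophagy and lysosome genes showed no such block. Of 29 tested genes 7 rose and 13 fell, and 16 rose and 5 fell on the library-total scale. The protease gene Ctsl rose by 1.20 ± 0.21, and Lamp2, a lysosomal membrane protein, and Ulk1, the kinase that starts autophagy, fell, at -1.49 and -1.10.

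Chaperones of the endoplasmic reticulum had smaller changes than at 4 h in many cases. Of 26 tested genes 14 rose and 1 fell, but without vehicle replicate 1 and CCl4 replicate 2 10 rose and 4 fell. On the library-total scale 20 rose and 0 fell, and with quantile normalisation 18 rose and 1 fell. At 4 h 23 had risen, and 13 of the 26 changes were smaller at 12 h than at 4 h. Hspa5, which encodes the chaperone BiP, stood at 179206, 235195, 318383, 321000.1 and 240939 counts in CCl4 livers and 57275, 54335, 62022, 50538 and 55514 in vehicle livers, a rise of 2.18 ± 0.27 after 3.07 at 4 h. Derl3, a factor for the export of misfolded proteins, rose by 2.02 ± 0.58, and the lectin chaperone Canx by 0.57 ± 0.14. Edem1, which marks misfolded glycoproteins for degradation, fell by 0.88.

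The ER stress element, read as CCAAT, 9 bases and CCACG, was in 0.119% of the windows, in 0.184% of the tested genes with a window and in 9 of 22 genes of this list with a window (40.9%). It was held by 7 of the 11 risen genes with a window. The windows of Hspa5 and Derl3, the 2 largest rises named here, and of Canx, a small one, are shown with the matches in capitals.
Hspa5, chr2:34771930-34772089, plus strand: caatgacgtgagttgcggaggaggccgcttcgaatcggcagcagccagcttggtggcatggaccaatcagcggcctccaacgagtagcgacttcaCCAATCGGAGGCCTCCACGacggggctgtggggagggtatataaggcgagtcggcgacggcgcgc
Derl3, chr10:75893238-75893397, plus strand: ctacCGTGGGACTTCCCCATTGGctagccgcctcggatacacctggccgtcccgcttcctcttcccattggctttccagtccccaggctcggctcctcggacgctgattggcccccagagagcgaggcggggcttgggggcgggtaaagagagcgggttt
Canx, chr11:50325674-50325833, minus strand: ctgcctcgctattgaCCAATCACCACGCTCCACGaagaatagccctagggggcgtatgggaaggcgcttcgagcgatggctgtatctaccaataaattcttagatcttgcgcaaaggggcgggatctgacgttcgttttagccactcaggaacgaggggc
The matches lie on the gene's strand in Hspa5 and Canx and on the opposite strand in Derl3.

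Targets of the integrated stress response were among the largest rises of the liver. Of 24 tested genes 20 rose, 19 of them by at least 2-fold, with a median of 2.87. Ddit3, which encodes the factor CHOP, rose from 552, 188, 262, 196 and 264 counts in vehicle livers to 6467, 8074.8, 10563, 7445 and 5704 in CCl4 livers, a change of 4.79 ± 0.34. Trib3, a pseudokinase that CHOP and ATF4 induce, rose by 4.98 ± 0.39, and Ppp1r15a, which restores translation by dephosphorylating eIF2alpha, by 3.46 ± 0.27. The amino acid carriers Slc7a1 (arginine and lysine), Slc7a5 (leucine) and Slc3a2 (the heavy chain that Slc7a5 and Slc7a11 share) rose by 4.18, 3.10 and 2.01. Sesn2, a leucine-sensing brake on mTORC1, rose by 2.64. The falls were those of Ddit4, another mTORC1 inhibitor (-0.92 ± 0.29), and the factor Atf5 (-0.54 ± 0.20), whose value on the library-total scale was -0.03 and which did not pass without CCl4 replicate 3 (adjusted p = 0.0524 in limma).

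Serine and one-carbon enzymes were divided between rises and falls. Of 26 tested genes 11 rose and 12 fell. Phgdh was read at 928, 435, 1335, 1620.4 and 1315 counts in CCl4 livers and at 40.9, 5.2, 7.5, 5.7 and 7.6 in vehicle livers. CCl4 replicate 2 was the lowest of its group and vehicle replicate 1 the highest of the other, with no overlap. The mitochondrial folate enzymes Mthfd2, Mthfd1l and Aldh1l2 rose by 4.48 ± 0.34, 3.73 ± 0.46 and 5.73 ± 0.59, and the proline pathway genes Aldh18a1 and Pycr1 by 3.96 ± 0.28 and 3.80 ± 0.48. The genes that fell are those of the hepatocyte methionine cycle and cytosolic folate pool. Mat1a, which makes S-adenosylmethionine, fell from a range of 74227 to 358163 counts in vehicle livers to 26718 to 53461 in CCl4 livers (-2.40 ± 0.27), and Bhmt, Aldh1l1 and Gnmt fell, at -2.24, -1.89 and -1.75.

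Cytosolic aminoacyl-tRNA synthetases, which load amino acids onto tRNAs, rose in 17 of 20 cases with no fall, led among those named by Sars (2.21 ± 0.16), Gars (1.74 ± 0.13) and Vars (1.65 ± 0.21). The C/EBP-ATF site that ATF4 and CHOP are known to bind, spelled TGATGNAA, was in 3.97% of all windows and in 2.9% of the tested genes with a window. It was in 8 of 21 genes of the integrated stress response list with a window (38.1%), all of which rose, in 5 of 13 synthetase genes (38.5%) and in 2 of 22 serine and one-carbon genes (9.09%). Windows of 4 genes that hold it are shown, with the site in capitals.
Atf3, chr1:191183334-191183493, minus strand: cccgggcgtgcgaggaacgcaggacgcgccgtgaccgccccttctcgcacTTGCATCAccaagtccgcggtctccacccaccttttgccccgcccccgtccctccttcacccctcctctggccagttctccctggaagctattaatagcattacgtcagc
Nupr1, chr7:126625471-126625630, minus strand: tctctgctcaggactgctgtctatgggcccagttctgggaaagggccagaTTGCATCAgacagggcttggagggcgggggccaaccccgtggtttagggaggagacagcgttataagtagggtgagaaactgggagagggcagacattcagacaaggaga
Asns, chr6:7693210-7693369, minus strand: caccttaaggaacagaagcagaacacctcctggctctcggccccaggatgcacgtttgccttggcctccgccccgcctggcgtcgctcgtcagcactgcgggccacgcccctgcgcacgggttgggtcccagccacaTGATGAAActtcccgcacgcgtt
Slc7a11, chr3:50443614-50443773, minus strand: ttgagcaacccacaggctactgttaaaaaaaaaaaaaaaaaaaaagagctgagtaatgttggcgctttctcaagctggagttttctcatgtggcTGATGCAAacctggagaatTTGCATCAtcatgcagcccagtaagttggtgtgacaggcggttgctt
Slc7a11 holds the site in both orientations, and Atf3 and Nupr1 hold the same 8 letters at the same distance, -110 to -103 from the start. Nupr1, a chromatin-associated stress protein, and Asns, asparagine synthetase, were shown for this site and not for the size of their changes, which were 5.23 ± 0.48 and 3.53 ± 0.68.

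**Figure D3:**
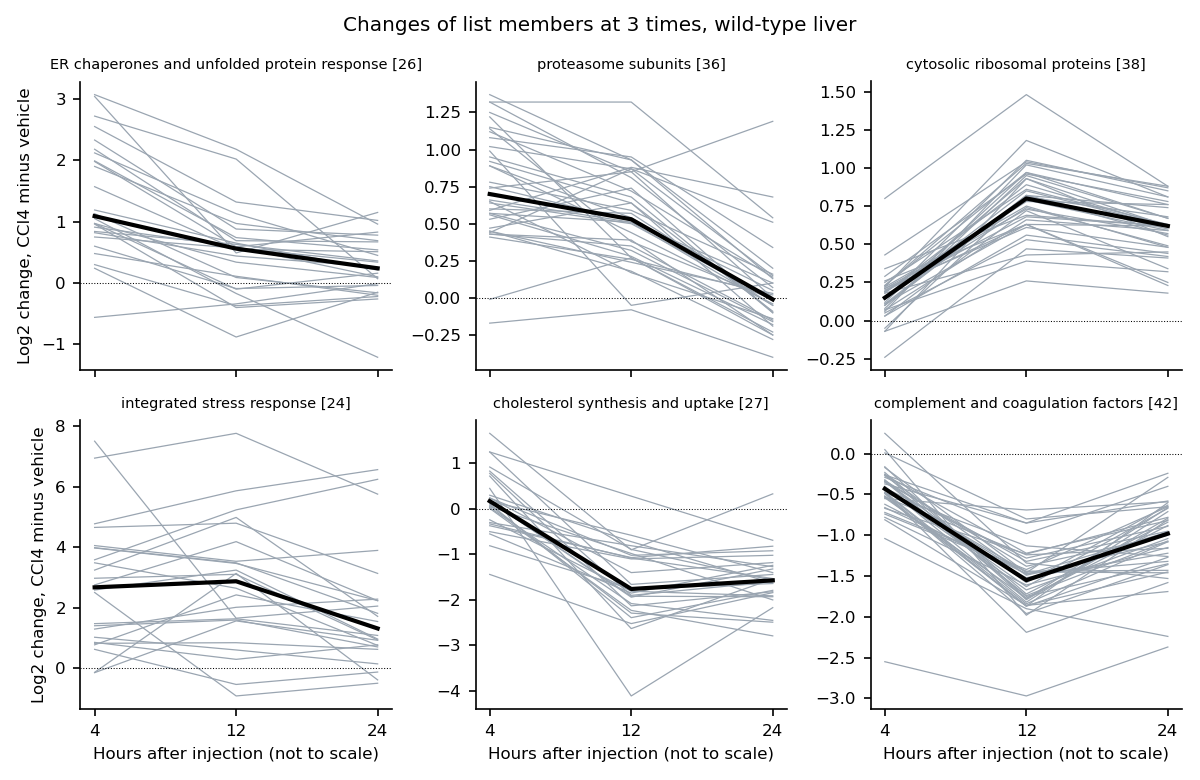
Log2 change against the vehicle livers of the same time at 4, 12 and 24 h in wild-type liver for each tested gene of 6 lists (thin lines) with the list's median (thick line). The ER chaperone and proteasome medians decline from 4 h, and the cholesterol median passes from 0.17 at 4 h to -1.76 at 12 h. The ribosomal protein median is 0.15 at 4 h, 0.80 at 12 h and 0.62 at 24 h, and 0 of its members differed between 12 h and 24 h by the test.

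Targets of NRF2 and glutathione enzymes rose in 23 of 29 tested genes, with 2 falls and a median of 1.09. Srxn1, sulfiredoxin, which reactivates peroxiredoxins, was read at 98855, 82128, 134195, 110085 and 90681 counts in CCl4 livers and 4738, 1509, 1885, 1449.6 and 1237 in vehicle livers. The lowest CCl4 liver was far above the highest vehicle liver, and the change was 5.75 ± 0.33. Gclc, the catalytic subunit of the rate-limiting step of glutathione synthesis, rose by 3.89 ± 0.34, while Gclm, its modifier subunit, fell by 0.38 and had a value of 0.14 on the library-total scale. Sqstm1, the autophagy receptor p62, rose by 3.61 ± 0.20, Txnrd1, thioredoxin reductase, by 2.02 ± 0.17, and Maff, a small MAF partner of NRF2, by 5.00 ± 0.44.

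Abcc4, a basolateral efflux pump for bile acids and conjugates, showed little spread within either group. It was read at 4313, 4639.8, 4588, 5160.3 and 4620.2 counts in CCl4 livers and at 168, 115, 107, 118 and 108 in vehicle livers, a rise of 5.25 ± 0.40, after a change of 0.19 at 4 h (adjusted p = 0.734 in limma). The difference between its 12 h and 4 h changes was 5.06 ± 0.56. The antioxidant response element core, spelled TGACNNNGC, is short and was found in 12.4% of all windows and in 16.6% of the tested genes with a window, against 11 of 24 genes of the list with a window (45.8%). The windows of Abcc4 (the downstream one of 2 annotated starts, where the match has the letters found in Maff) and Maff are shown with the match in capitals. Maff has several annotated starts, and the one shown is the only one whose window held a match.
Abcc4, chr14:118676932-118677091, minus strand: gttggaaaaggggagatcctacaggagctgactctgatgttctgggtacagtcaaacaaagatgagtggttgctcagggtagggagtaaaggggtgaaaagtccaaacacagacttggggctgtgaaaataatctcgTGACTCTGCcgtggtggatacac
Maff, chr15:79346461-79346620, plus strand: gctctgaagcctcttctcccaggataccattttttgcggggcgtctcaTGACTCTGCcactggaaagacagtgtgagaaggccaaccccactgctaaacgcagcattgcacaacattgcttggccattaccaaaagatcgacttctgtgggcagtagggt
Both hold TGACTCTGC on the gene's strand.

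Enzymes that remove peroxides outside the NRF2 list were mostly lower. Of 18 tested genes 3 rose and 11 fell, but 5 rose and 5 fell on the library-total scale. Cat (catalase) and Gpx1 (glutathione peroxidase 1) fell, at -1.27 and -1.21, and Gpx4, which protects membrane lipids, rose by 0.36, a call that ended when 1 of 7 of the livers was left out (adjusted p = 0.0531 to 0.12 in limma). Ferritin genes, which store iron, rose: Fth1 from a range of 39928 to 60231 counts in vehicle livers to 118512 to 235009.6 in CCl4 livers (1.86 ± 0.20) and Ftl1 by 0.87 ± 0.18. Of 22 iron genes 12 fell, a count of 4 on the library-total scale, among them Tfr2 and Hjv, sensors upstream of hepcidin, at -1.56 and -2.02. Hamp, the gene of hepcidin itself, had a change of 0.87 ± 0.40 that did not pass the test (adjusted p = 0.059 in limma). It passed without vehicle replicate 4 (1.07, adjusted p = 0.0282 in limma), in a fit of the compared groups alone (0.87, adjusted p = 0.0271), with quantile normalisation (1.50, adjusted p = 0.00065) and on the library-total scale (1.39, adjusted p = 0.00176). The metallothionein genes Mt1 and Mt2 did not pass it either, at 0.36 ± 0.67 and 1.03 ± 0.74. Mt1 was read at 73973, 5643, 131027, 86654 and 58743 counts in CCl4 livers and at 4206, 56244, 51768, 109443 and 58714 in vehicle livers, so that the 2 livers that stood apart were the lowest of their groups. Without CCl4 replicate 2 the change of Mt2 passed, at 1.77 (adjusted p = 0.0306 in limma).

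Genes that build ribosomes rose almost without exception. In the nucleolar and assembly list 34 of 36 tested genes rose, 28 by at least 2-fold, with a median of 1.61. Ncl, nucleolin, was read at 24175, 20015, 34984, 30349 and 29523 counts in CCl4 livers and at 5981, 5155, 4395, 5268 and 4643 in vehicle livers, with no overlap and a change of 2.43 ± 0.17. Gar1, a component of the pseudouridylation machinery of ribosomal RNA, rose by 2.69 ± 0.19, Rrp9 by 2.34 ± 0.19 and Dkc1, the pseudouridine synthase, by 2.00 ± 0.17. Of the 36 changes 16 were larger than at 4 h and 11 larger than at 24 h.

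Ribosomal proteins of the cytosol rose as a block. In the 12 h livers 37 of 38 rose, with a median of 0.80, whereas at 4 h 1 had risen, and 19 changes were larger at 12 h than at 4 h. At 24 h 34 had risen, with a median of 0.62, and 0 changes differed between 12 h and 24 h by the test of the difference. Rps12, of the small subunit, was read at 10782, 7369, 13831, 12109 and 8777 in CCl4 livers and at 5722, 4971, 4236, 4749 and 5474 in vehicle livers, a change of 1.04 ± 0.18. Of the list 6 members passed a 2-fold rise. Myc, a transcription factor known to drive ribosome production, rose from 372, 155, 132, 191 and 139.9 counts in vehicle livers to 7928, 5131, 10907, 6722 and 8926 in CCl4 livers, a change of 5.38 ± 0.46, larger than at 4 h by 2.67 ± 0.65.

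Replication genes had more rises than falls and mitotic genes more falls than rises. Among 24 replication genes 13 rose and 3 fell (17 and 0 on the library-total scale). Without any 1 of CCl4 replicates 3, 4 and 5 or vehicle replicates 1, 2 and 3, 1 replication gene fell. Of the 24 changes 10 were larger than at 4 h. Cdt1, which loads the replicative helicase, rose from a range of 61.6 to 94.3 counts in vehicle livers to 343 to 789.6 in CCl4 livers (2.98 ± 0.27), and Fen1, Lig1 and Pcna rose by 1.41, 1.35 and 1.05. Among 21 mitotic genes 11 fell and 1 rose, with 2 falls on the library-total scale and 6 with quantile normalisation. Without CCl4 replicate 4 or 5 or vehicle replicate 3, 7 mitotic genes fell. Mki67, which coats mitotic chromosomes, was read at 78.5, 64.6, 37.4, 24.9 and 58.0 in CCl4 livers and at 127, 139, 227, 109 and 88.2 in vehicle livers, a change of -1.41 ± 0.42. Ccnb1, the mitotic cyclin B1, changed by -1.99 ± 0.60. Both are low in these livers. The mitotic changes were lower at 12 h than at 4 h in 9 genes and lower than at 24 h in 9. The median of the list was 0.5 at 4 h, -1.07 at 12 h and 0.8 at 24 h.

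Among inhibitors of the cycle, Cdkn1c, the CDK inhibitor p57, was read at 986, 408, 1277, 1445 and 369 counts in CCl4 livers and at 104, 74.7, 49.1, 51.5 and 56.8 in vehicle livers, a rise of 3.56 ± 0.30. Its changes at 4 h and 24 h were -0.25 and -0.64, and the 12 h change was larger than each by 3.82 ± 0.42 and 4.20 ± 0.42. Cdkn1a, the CDK inhibitor p21 and a p53 target, had a change of 0.54 ± 0.39 that did not pass the test (adjusted p = 0.23 in limma), after 6.12 at 4 h. It passed in a fit of the compared groups alone (0.54, adjusted p = 0.0462 in limma) and on the library-total scale (1.05, adjusted p = 0.019). Its vehicle livers spanned 1582 to 3866 counts at 12 h and 41.4 to 516 at 4 h. Ccnd1, the G1 cyclin D1, had a change of 0.15 ± 0.36 (adjusted p = 0.742), with 7504 counts in vehicle replicate 1, where the rest of its group read 1674 to 2194, and 7349 in CCl4 replicate 2 against 1843 to 2829.

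Of 24 p53 targets 12 rose and 4 fell (19 and 2 on the library-total scale). Gadd45a, a DNA damage and stress sensor, rose from a range of 54.1 to 217 counts in vehicle livers to 2531 to 4623 in CCl4 livers (4.85 ± 0.42), and the p53 gene Trp53, its target Trp53inp1 and pro-apoptotic Bax by 1.80, 2.95 and 1.57. In 9 genes of this list the change was smaller than at 4 h, including Mdm2, the ubiquitin ligase of p53, at 0.98 after 2.58. Among 29 cell death genes 10 rose and 8 fell, and 3 fell on the library-total scale. The risen genes included Tnfrsf12a, the receptor of the cytokine TWEAK (4.83 ± 0.37), Mlkl, the effector of necroptosis (1.53 ± 0.15), and the anti-apoptotic Bcl2l1 and Mcl1 (1.62 and 1.28). The fallen genes included the executioner caspase gene Casp6 (-0.77).

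Immediate early genes and MAP kinase inhibitors were mostly higher in the CCl4 livers. Of 21 immediate early genes 12 rose and 2 fell (16 and 1 on the library-total scale), and 8 changes were smaller than at 4 h. Klf6, a zinc finger factor, was read at 5382, 4507, 6171, 5959 and 6063 counts in CCl4 livers and at 385, 396, 328, 378 and 368 in vehicle livers, with no overlap (3.91 ± 0.25). Jun, a subunit of AP-1, rose by 3.06 ± 0.33, and Klf4 by 3.84 ± 0.44 after 0.77 at 4 h. Among 17 feedback inhibitors of MAP kinases 13 rose, with Dusp5, Dusp4 and Dusp1 at 6.36, 5.25 and 3.85, and Errfi1, an inhibitor of the EGF receptor, fell by 1.27.

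Growth factor ligands and receptors moved in opposite directions in part. Of 20 genes 8 rose and 4 fell. The EGF-family ligands Btc, Nrg1, Hbegf and Tgfa rose by 3.78, 4.01, 2.82 and 1.75, and the urokinase receptor Plaur by 4.84 ± 0.47. Their receptors Egfr and Erbb3 fell, at -1.10 and -2.44, and Hgf, the hepatocyte growth factor made by stellate cells, at -1.06. The fall of Hgf did not pass without CCl4 replicate 3 (-0.79, adjusted p = 0.0711 in limma).

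Cytoskeletal genes rose in 24 of 37 cases with no fall, and in 30 on the library-total scale. Of the 37 changes 10 were larger than at 4 h. Anxa2, a membrane-binding annexin, was read at 16017, 10856, 23104, 19187 and 12907 counts in CCl4 livers against 976, 858, 263, 326 and 766 in vehicle livers (4.82 ± 0.32). Tubb6, S100a11 and Anxa5 rose by 3.79, 2.95 and 2.45. The hepatocyte keratins Krt8 and Krt18 rose by 3.12 ± 0.23 and 2.32 ± 0.22, while the junction genes Cldn2, Cldn1 and Gjb2 fell, at -1.82, -1.61 and -1.45.

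Drug-metabolising enzymes were lower as a class, with a few exceptions. Of 43 tested P450 genes 3 rose and 32 fell, and 23 fell on the library-total scale. The risen genes were Cyp2a5, the coumarin hydroxylase, Cyp2b10, the classical target of the receptor CAR, and Cyp1a1, the classical target of the aryl hydrocarbon receptor. Cyp2a5 was read at 30351, 28718, 37625, 28928 and 18301 counts in CCl4 livers and at 5775, 2385, 3298, 4036 and 2063 in vehicle livers, with no overlap (3.10 ± 0.43), and its change at 4 h was -0.39. Cyp2b10 and Cyp1a1 rose by 2.86 ± 0.64 and 2.46 ± 0.55, while the receptor genes Nr1i3 (CAR) and Ahr fell, at -1.55 and -1.69. Cyp2c50, Cyp2c54 and Cyp2j5 fell, at -2.17, -2.01 and -1.73; members of the Cyp2c cluster are close copies and may share reads.

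Conjugating enzymes followed the same pattern. Of 29 glucuronosyl- and sulfotransferase genes 1 rose and 22 fell, 17 on the library-total scale. Sult2a8 and Ugt3a1 fell, at -2.99 and -3.18, and the exception was Ugt2b37 (1.94 ± 0.56), which stood at 4.04 at 4 h and 5.01 at 24 h. Among 21 glutathione transferases 4 rose and 10 fell, with 6 falls on the library-total scale. The pi-class Gstp1 rose from a range of 1938 to 4119 counts in vehicle livers to 7341 to 17664 in CCl4 livers (2.12 ± 0.18), and the abundant Mgst1 and Gstz1 fell, at -1.56 and -1.68.

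Genes that are expressed mainly in female liver held several of the largest falls. Of 25 tested genes 19 fell by at least 2-fold and 1 rose, with 13 falls on the library-total scale. Sult3a1 was read at 199, 98.2, 201, 133 and 227 counts in CCl4 livers and at 4840.4, 8573, 6545, 5535 and 7188 in vehicle livers, a change of -5.28 ± 0.94. Cyp3a16 and Cyp3a41b changed by -6.22 ± 1.32 and -5.99 ± 1.10; these 2 and Cyp3a41a are close copies and may share reads. At 4 h the change of Sult3a1 was 1.20 and that of Cyp3a16 0.81. In the growth hormone axis, which sets the sex bias of liver genes, 12 of 20 genes fell, among them the receptor Ghr (-1.70 ± 0.25), its feedback inhibitor Socs2 (-1.76 ± 0.35) and Igf1 (-1.11 ± 0.20), and Socs1 rose by 1.64 ± 0.54. For Socs2 and Igf1 the changes at 4 h were -0.07 and -0.16, and at 24 h 0.11 and -0.16.

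Pericentral genes that depend on Wnt signalling fell in 19 of 24 cases, 16 on the library-total scale. Oat, ornithine aminotransferase, was read at 1390.5, 3968, 1610.5, 1333 and 1739 in CCl4 livers and at 20186, 20648, 23702, 21015 and 21764 in vehicle livers (-3.55 ± 0.24), and Slc13a3, a dicarboxylate carrier, fell by 3.11 after a change of 0.13 at 4 h. The stem cell receptor gene Lgr5 fell by 2.25. Axin2, a feedback target of Wnt signalling, had a smaller change of -0.58 ± 0.20, with overlap between groups and a value of -0.06 on the library-total scale. Axin2 did not pass without CCl4 replicate 3 or vehicle replicate 5 (adjusted p = 0.052 and 0.0582 in limma). The exceptions were 2 rises, those of Slc1a4, a neutral amino acid carrier (2.38 ± 0.34), and of Znrf3. Of 22 tested Wnt ligands and receptors 2 rose and 10 fell, with 5 falls on the library-total scale. The co-receptor Lrp5 fell by 1.26 after a change of 0.51 at 4 h, and Wnt2, an endothelial Wnt ligand, at -1.21.

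Enzymes that break down amino acids fell without exception, in 35 of 35 tested genes and in 32 on the library-total scale. Aadat, of the lysine and kynurenine pathway, was read at 336 to 1153 counts in CCl4 livers and at 1901 to 3136 in vehicle livers (-2.29 ± 0.24). Ivd, of leucine breakdown, and Mmut, the methylmalonyl-CoA mutase, fell, at -2.16 and -2.14. The median was -1.68 at 12 h and -0.63 at 4 h, and 24 of the genes were lower at 12 h than at 4 h by the test of the difference. Of 20 urea cycle and nitrogen genes 15 fell, 8 on the library-total scale, with Otc and Cps1 at -1.98 ± 0.25 and -1.68 ± 0.33. CCl4 and vehicle livers overlapped in Cps1, where CCl4 replicate 2 was read at 128738 counts, the other CCl4 livers at 20868 to 46112 and the vehicle livers at 100909 to 193018.

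Cholesterol synthesis was lower throughout. Of 27 genes 24 fell and none rose, and 20 fell on the library-total scale. Idi1, isopentenyl diphosphate isomerase, was read at 38.0, 192, 38.1, 90.0 and 54.7 in CCl4 livers and at 2348, 947, 576, 717 and 2506 in vehicle livers, a change of -4.11 ± 0.44 after 0.45 at 4 h. Stard4, a cholesterol carrier, fell by 2.63. The median of the list passed from 0.17 at 4 h to -1.76 at 12 h, and 22 genes were lower at 12 h than at 4 h.

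Bile acid genes fell in 22 of 26 cases, 15 on the library-total scale, and the rise was that of Abcc4. Cyp8b1, the 12alpha-hydroxylase of cholic acid synthesis, was read at 843, 1892, 1269.5, 1049 and 769.5 in CCl4 livers and at 8249, 13669, 19283, 14232 and 11117 in vehicle livers (-3.54 ± 0.56). Cyp7a1, which sets the pace of bile acid production, was read at 110.2, 2134, 53.4, 163 and 61.3 in CCl4 livers and at 1870.1, 3305, 7318, 2811 and 3892 in vehicle livers, so that CCl4 replicate 2 lay within the vehicle range. Its change was -4.37 ± 0.71 with all livers and -5.51 ± 0.64 without vehicle replicate 1 and CCl4 replicate 2. The uptake carriers Slc10a1 and Slco1b2 fell, at -2.31 and -2.69.

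Fatty acid oxidation genes fell in 26 of 31 cases, each by at least 2-fold, and 24 fell on the library-total scale. Etfdh, which passes electrons from oxidation to the respiratory chain, was read at 1862, 4026, 1678, 3052 and 3081 in CCl4 livers and at 9132, 12111, 10859, 13357 and 10503 in vehicle livers (-2.09 ± 0.22), and the trifunctional protein genes Hadha and Hadhb fell, at -1.41 and -1.65. The exception was Acot2, a mitochondrial thioesterase, which rose by 3.40 ± 0.38 although CCl4 replicate 2, at 686 counts, was below the other CCl4 livers at 1789.6 to 1862. Plin2, the coat protein of lipid droplets, rose from 14105, 15232, 17268, 16130.1 and 13913 counts in vehicle livers to 50599.5, 37629.5, 51676, 50439.6 and 50749.7 in CCl4 livers (1.65 ± 0.20), and of 14 droplet genes 5 rose and 5 fell. Without vehicle replicate 4, 3 droplet genes fell, as many as on the library-total scale. Of 22 lipogenic genes 10 fell and none rose (3 rose and 7 fell on the library-total scale), with the factor Mlxipl at -1.76 ± 0.26. Lipoprotein genes fell in 18 of 21 cases, 11 on the library-total scale, with Mttp, which loads lipid onto apoB, at -1.32 ± 0.19, and the rise was that of Angptl8 (1.49 ± 0.40).

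Glucose genes showed a fall on the hepatocyte side. Of 18 tested genes 15 fell and 1 rose, with 9 falls on the library-total scale. Fbp1 (fructose bisphosphatase) and Pcx (pyruvate carboxylase) fell, at -2.12 and -1.76. The glucose carrier Slc2a1, which hepatocytes express little, rose by 2.35 ± 0.19, and Ppp1r3g, a glycogen-targeting phosphatase subunit, rose by 4.20 ± 0.84 with a range of 14.3 to 342 counts in CCl4 livers against 2.5 to 15.3 in vehicle livers. The pentose phosphate genes Pgd and Tkt rose by 2.12 and 0.97. Targets of the hypoxia response rose in 9 of 19 cases and fell in 5 (12 and 2 on the library-total scale). Ndrg1, a stress gene of this set, was read at 10909, 7086, 11336, 10367 and 10696 counts in CCl4 livers and at 2923, 523, 414, 473 and 1266 in vehicle livers, a change of 3.59 ± 0.39. Pdk1, which shuts off pyruvate dehydrogenase, and Bnip3, a receptor of mitophagy, fell, at -1.69 and -1.72.

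Mitochondrial genes fell by less. In the TCA cycle 14 of 17 genes fell and 2 rose, with 3 rises and 5 falls on the library-total scale. Suclg2, of succinyl-CoA ligase, fell by 1.36. Respiratory chain subunits fell in 31 of 48 cases with a median of -0.50, but the library-total scale gave 5 rises and 5 falls, so the direction of this list hangs on the scaling. Sdha, of complex II, and Atp5a1, of the ATP synthase, fell, at -1.51 and -1.15.

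Most genes of secreted plasma proteins fell. All 42 tested complement and coagulation genes fell, 40 of them also on the library-total scale. In 32 the change was lower than at 4 h, where 16.8% of all tested genes had a lower change. F9, coagulation factor IX, was read at 2321, 3981, 1666, 2407 and 2402 counts in CCl4 livers and at 7213, 7319, 7632, 8856 and 8228 in vehicle livers (-1.67 ± 0.15). F7, Hc (complement C5) and Kng1 (kininogen) fell, at -1.86, -1.96 and -1.61. Of 24 carriers and hormones 19 fell and 2 rose. On the library-total scale 14 fell and 5 rose, and with quantile normalisation 12 and 4. The risen genes were Serpina7, thyroxine-binding globulin, from a range of 1225 to 2651 counts in vehicle livers to 18899 to 39103 in CCl4 livers (3.80 ± 0.36), and Fgf21, a stress hormone, at 1.65 ± 0.65 after 7.50 at 4 h. Fgf21 did not hold without vehicle replicate 1 and CCl4 replicate 2 (1.29 ± 0.74, adjusted p = 0.132 in limma), nor without CCl4 replicate 2 or 3 or vehicle replicate 1, 3 or 5 alone (0.0514 to 0.0788). Gdf15, another stress hormone, rose from a range of 29.5 to 245 counts in vehicle livers to 440.0 to 1017 in CCl4 livers (3.48 ± 0.45).

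Acute phase genes fell in 17 of 28 cases and rose in 2, and without the 2 livers that stood apart 23 fell. On the library-total scale 12 fell, and with quantile normalisation 11. Itih3, Crp and Fgl1 fell, at -1.89, -1.50 and -1.64. The rises were Cd14, the endotoxin co-receptor, from 162, 717, 249.9, 595 and 642 counts in vehicle livers to 3258, 3330.0, 4436, 5737 and 3611 in CCl4 livers (3.29 ± 0.40), and Il1rn, the interleukin 1 receptor antagonist (2.74 ± 0.47). Hepatocyte transcription factors fell in 16 of 31 cases and rose in 2, with 8 rises and 14 falls on the library-total scale. Hnf4a, the central factor of hepatocyte identity, was read at 8356, 15016, 9201, 11859 and 9492 in CCl4 livers and at 23829, 24227, 25391, 31877 and 29705 in vehicle livers (-1.35 ± 0.15), and Prox1 and Cebpa fell, at -1.87 and -1.10. Afp, alpha-fetoprotein of fetal liver, rose from a range of 10.2 to 32.5 counts in vehicle livers to 134 to 279 in CCl4 livers (3.19 ± 0.37), while 3 of the 7 tested fetal genes fell.

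Inflammatory signals rose in part. Of 26 chemokines and cytokines 13 rose and 3 fell (17 and 1 on the library-total scale), with rises of Cxcl9 (2.12 ± 0.36), Cxcl2 (3.27 ± 0.59) and Ccl5 (2.11 ± 0.43) and a fall of Cxcl12 (-1.97 ± 0.16), which retains cells in niches. Ccl2, the monocyte attractant, rose by 2.29 ± 0.61, with overlap between the groups. The NF-kappaB subunit genes Relb and Nfkb2 rose by 3.15 ± 0.26 and 2.26 ± 0.22. Of 16 tested NF-kappaB feedback and adhesion genes only 5 rose, a share near the 29.2% over all tested genes, and 1 fell. Their median was 0.30, and 0.02 without vehicle replicate 1, where 3 fell. On the library-total scale 9 of the 16 rose and 0 fell, and at 4 h 9 had risen. Among 30 interferon-stimulated genes 15 rose and 2 fell (23 and 1 on the library-total scale), whereas at 4 h 3 had risen. In 14 of these genes the change was larger at 12 h than at 4 h. Without the CCl4 mice numbered below 7000 (replicates 1 and 2) 11 rose and 4 fell, and the median was 0.18 in place of 0.64. The list summed to 45724 counts in CCl4 replicate 1, to 21776 to 26229 in the other CCl4 livers and to 15395 to 22822 in vehicle livers. Gbp2, a guanylate-binding protein induced by interferon gamma, was read at 1113, 644, 1059.7, 1132 and 2439 in CCl4 livers and at 253, 299, 202, 231 and 219.6 in vehicle livers (2.28 ± 0.31), and Oasl1, Rsad2 and Gbp5 rose by 2.20, 2.34 and 2.16.

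**Figure D4:**
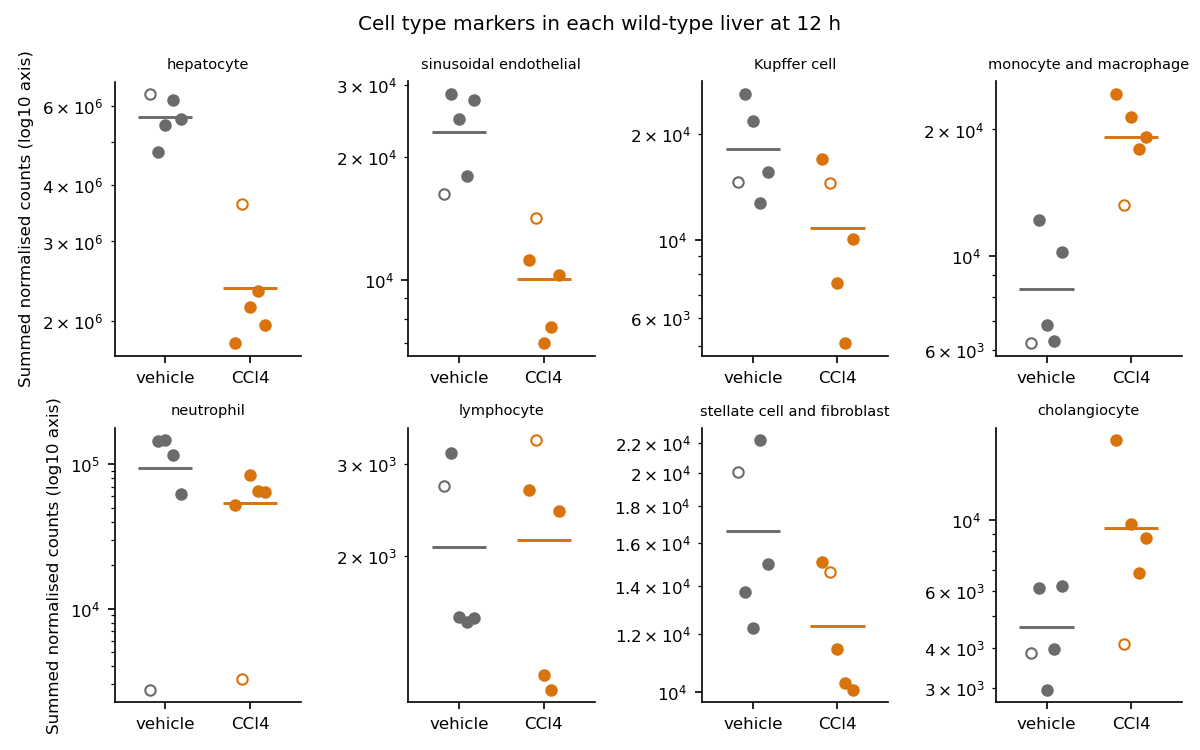
Summed normalised counts of tested marker genes of 8 cell types in each of the 10 livers on a log10 axis, 5 vehicle livers (grey) and 5 CCl4 livers (orange), with vehicle replicate 1 and CCl4 replicate 2 open. Sinusoidal endothelial sums are lower in the CCl4 livers, and CCl4 replicate 1 is the highest liver for cholangiocyte markers. The neutrophil sums are mostly Lcn2, an acute phase gene that hepatocytes also express, read at 2544 to 144917 counts in vehicle livers and 2221 to 82813 in CCl4 livers.

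Markers of the resident cells of the sinusoid were lower in the CCl4 livers. Of 20 sinusoidal endothelial markers 18 fell, 12 on the library-total scale, and summed to 6975 to 14136 counts in CCl4 livers and 16214 to 28514 in vehicle livers. At 4 h no marker passed the test in limma, nor did any reach an unadjusted p under 0.05, and 16 of the changes were lower at 12 h than at 4 h. Flt4, a receptor of vascular growth factors C and D, and Ehd3 fell, at -1.48 and -1.53. Other endothelial markers fell in 9 of 12 cases but in 0 on the library-total scale. Kupffer cell markers fell in 11 of 14 cases, 4 on that scale, with Vsig4, the complement receptor, at -1.29 ± 0.30 and Clec4f at -1.08 ± 0.29, where the groups overlapped. Without CCl4 replicate 4, 5 Kupffer cell markers fell, and without the CCl4 mice numbered below 7000 (replicates 1 and 2) the change of Clec4f was -1.70.

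Of 18 monocyte and macrophage markers 6 rose and 1 fell (11 and 0 on the library-total scale). The rises included Cd63, a lysosomal tetraspanin, from 233, 222, 81.6, 139 and 225 counts in vehicle livers to 2426, 965, 3692, 3093 and 2172 in CCl4 livers (3.74 ± 0.42), and Lgals3, galectin 3 (2.96 ± 0.36), genes that other cell types also express, while Ly6c2, a marker of blood monocytes, changed by 1.21 ± 0.45 with 281, 51.1, 25.9, 29.1 and 62.4 counts in CCl4 livers. Ly6c2 was highest in CCl4 replicate 1, without which its change was 0.65 and did not pass (adjusted p = 0.155 in limma), and vehicle livers spanned 16.7 to 45.2. Neutrophil markers rose in 0 of 10 cases and fell in 2, and of 20 lymphocyte markers none passed the test in limma or reached an unadjusted p under 0.05; Cd3e, of the T cell receptor, was at 10.3 to 34.2 and 11.9 to 25.1 counts. Without vehicle replicate 1, 6 of the neutrophil markers fell. On the library-total scale 0 neutrophil markers fell and 4 lymphocyte markers rose, and with quantile normalisation 2 lymphocyte markers rose. S100a8, a neutrophil granule gene, was read at 496, 212, 243, 238 and 357 in CCl4 livers and at 26.7, 1096, 272, 284 and 347 in vehicle livers (change 0.28 ± 0.59, adjusted p = 0.697 in limma).

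Stellate cell and fibroblast markers fell in 7 of 18 cases and in 0 on the library-total scale. Leaving out 1 of CCl4 replicates 3, 4 and 5 or of vehicle replicates 4 and 5 brought this to 3 or 4 falls. Lrat, which stores retinol in stellate cells, had a change of -0.28 ± 0.24 that did not pass the test (adjusted p = 0.326 in limma). Matrix genes fell in 15 of 32 cases and rose in 3, but the library-total scale gave 4 rises and 3 falls. Without CCl4 replicate 5 or vehicle replicate 3, 1 matrix gene rose. Fn1, fibronectin, fell by 1.85 and Col18a1, a basement membrane collagen of hepatocytes, at -1.74, and Lamc1, a laminin chain, rose by 1.90 ± 0.18. Timp1, the inhibitor of metalloproteases, had a change of 0.42 ± 0.85 (adjusted p = 0.688 in limma), with 3.1, 287, 29.2, 97.3 and 309 counts in vehicle livers. Of 21 tested matrix proteases and inhibitors 5 rose and 8 fell, with a median of -0.16 (7 rose and 4 fell on the library-total scale). The matrix metalloprotease genes Mmp13 and Mmp12 rose by 4.31 ± 0.60 and 3.03 ± 0.71 from 1.6 to 13.6 and 6.3 to 57.6 counts in vehicle livers. Of 24 TGF-beta and BMP genes 7 rose and 5 fell, with 1 fall on the library-total scale. Tgfb2, a TGF-beta ligand, rose by 3.28 ± 0.46, and Inhbe, a liver activin subunit, fell by 1.35.

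Bile duct and blood markers were uneven across the CCl4 livers. Of 11 cholangiocyte markers 4 rose and 2 fell. The rises came to 2 without CCl4 replicate 1, vehicle replicate 1 or vehicle replicate 3, and in a fit of the compared groups alone. Krt19, the cytokeratin of bile ducts, was read at 1536, 24.7, 7.6, 6.0 and 26.3 in CCl4 livers and at 50.3, 278, 18.3, 15.3 and 176 in vehicle livers and did not pass the test (-0.72 ± 0.94, adjusted p = 0.526 in limma). CCl4 replicate 1 alone held most of the Krt19 reads of its group. Without it Krt19 fell by 2.07 (adjusted p = 0.0189 in limma), and 5 cholangiocyte markers fell. Hba-a1, a globin of red cells, was highest in CCl4 replicate 1 and vehicle replicate 2, and had a change of -0.27 ± 0.68. The part of these bile duct and blood reads in other changes was not tested. Sox9, a factor of bile ducts that injured hepatocytes also switch on, rose by 2.37 ± 0.35 with 1406, 752, 1433, 1078 and 1459 counts in CCl4 livers and 256, 168, 186, 289.9 and 275 in vehicle livers, a separation that did not rest on replicate 1.

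The 12 h response was set against the 4 h response by the test of the difference of the 2 changes, which differed in 4539 genes (31.2%), 2092 higher at 12 h (14.4%) and 2447 lower (16.8%). This split depended on the scaling, with 4822 higher and 846 lower on the library-total scale and 2327 higher and 1999 lower with quantile normalisation. Among the largest upward differences were those of Ciart, a repressor of the circadian clock (6.82 ± 0.84), Cpe, a carboxypeptidase of peptide hormones (6.93 ± 1.04), Gsta1 (5.38 ± 1.10), Phgdh (4.95 ± 0.80) and Aldh1l2 (4.74 ± 0.84). Cpe passed from a fall of -2.33 at 4 h to a rise of 4.60 at 12 h. Among the largest downward differences were those of Sult3a2, a close copy of Sult3a1 (-7.31 ± 1.31), Cyp3a16 (-7.03 ± 1.86), Fgf21 (-5.86 ± 0.92), Cdkn1a (-5.58 ± 0.55) and Slc34a2 (-5.73 ± 0.97), a phosphate carrier.

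Clock genes had different changes at the 2 times. The hour of each injection and killing was not given, so time after CCl4 and time of day cannot be told apart between the groups. Of 20 clock and output genes 7 rose and 5 fell at 12 h (11 and 1 on the library-total scale), and 11 changes were higher and 4 lower than at 4 h. Ciart was read at 238, 143, 459, 365 and 305 counts in CCl4 livers and at 5.2 to 51.5 in vehicle livers, a rise of 3.93 ± 0.60, and Wee1, a mitotic kinase under clock control, rose by 3.21 ± 0.45. Arntl, the clock activator BMAL1, fell by 0.77 after a rise of 4.14 at 4 h, with 27.9 to 79.1 counts in the 4 h vehicle livers and 853 to 1026 in the 12 h vehicle livers. Cry1, a clock repressor, rose by 1.20 ± 0.31, and the output factor Hlf fell by 1.57.

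**Figure D5:**
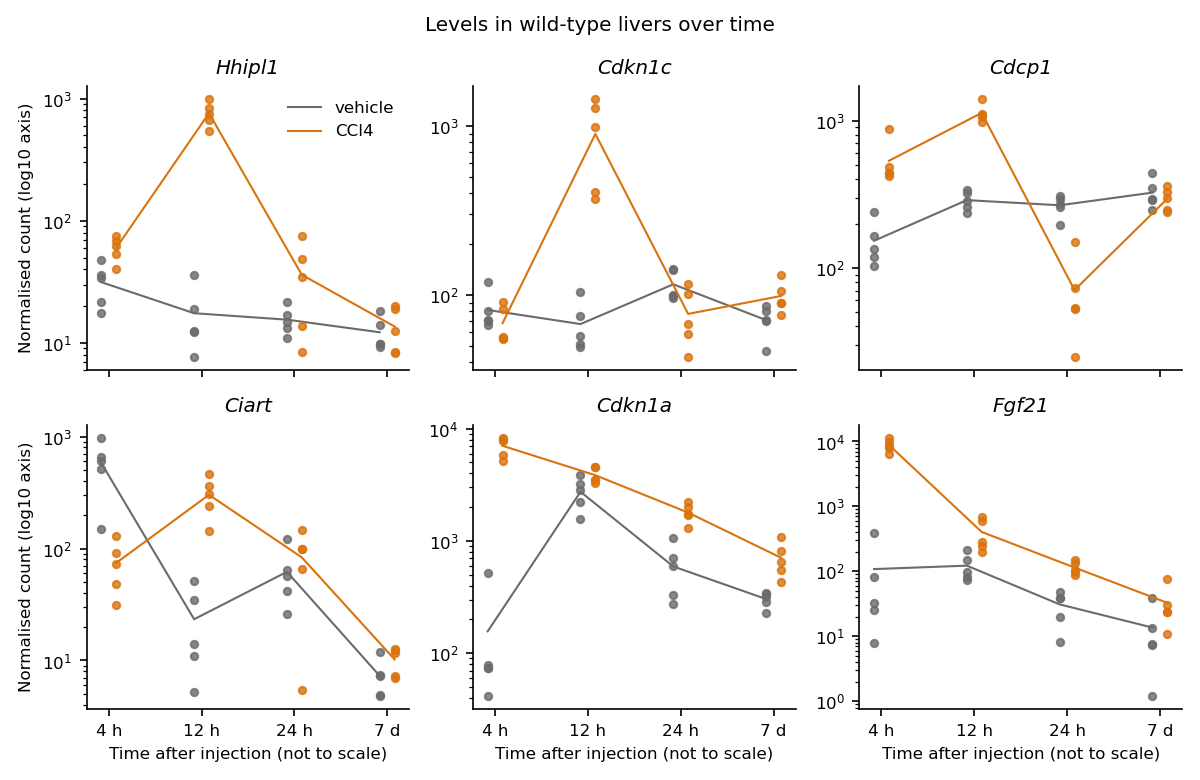
Normalised counts of 6 genes in the 5 wild-type livers of each treatment and time on a log10 axis, vehicle (grey) and CCl4 (orange), with lines through the group means and the times not drawn to scale. Hhipl1 and Cdkn1c are highest in the 12 h CCl4 livers, at 544 to 993 and 369 to 1445, while the group means of Cdkn1a and Fgf21 are highest in the 4 h CCl4 livers.

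Against 24 h the changes differed in 1980 genes (13.6%), 1245 higher at 12 h (8.57%) and 735 lower (5.06%). Without CCl4 replicate 3 of 12 h 1285 differed. The library-total scale gave 1490 higher and 427 lower, and quantile normalisation 1146 and 1031. Hhipl1, a relative of the hedgehog-interacting protein, was read at 544, 993, 845, 666 and 746 counts in the 12 h CCl4 livers, at 36.1, 12.2, 12.5, 19.1 and 7.6 in the 12 h vehicle livers, at 39.9 to 75.7 in the 4 h CCl4 livers and at 8.5 to 74.7 in the 24 h CCl4 livers. Its 12 h change of 5.52 ± 0.40 was larger than at 4 h and 24 h by 4.56 ± 0.56 and 4.69 ± 0.56, so it was one of the genes that stood high at this time above both neighbours. Rrad, a Ras-like inhibitor of calcium channels, rose by 4.81 ± 0.95, with 474, 444, 644, 422 and 401 in the CCl4 livers and 22.0, 95.5, 5.0, 3.8 and 19.5 in the vehicle livers. Its change exceeded that at 24 h by 4.14 ± 1.35, but at 24 h 1 of the vehicle livers stood far above the other 4 (range 9.8 to 2821, against 38.3 to 77.1 in CCl4 livers). Without that liver the difference was 2.60 and did not pass (adjusted p = 0.0588 in limma). Cdcp1, a membrane protein phosphorylated by Src kinases, rose by 1.97 ± 0.27 and had a change of -2.12 at 24 h, a difference of 4.08 ± 0.38. Irx1, a homeobox factor, was read at 346, 134, 82.4, 30.0 and 97.4 in CCl4 livers and at 23.6, 1.7, 4.2, 1.9 and 5.9 in vehicle livers (4.14 ± 0.67), and its change at 24 h was -2.06. Genes with lower changes at 12 h than at 24 h included Emp1, an epithelial membrane protein (-4.13 ± 1.10), Tagln, an actin-binding protein of contractile cells (-3.33 ± 0.87), the fatty acid carrier Fabp5 (-2.63 ± 0.71) and the liver factor Onecut1 (-2.72 ± 0.61). Tagln had no passed change at 12 h (-0.03 ± 0.61, adjusted p = 0.971 in limma), and Fabp5 and Onecut1 fell, at -1.62 and -2.01. Without the CCl4 mice numbered below 7000 the fall of Fabp5 did not pass (-1.28, adjusted p = 0.0567 in limma).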

How the data were processed

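Poly(A) RNA of whole liver was sequenced on an Illumina NovaSeq instrument after TruSeq Stranded mRNA preparation from 500 ng of RNA, per the labels' protocols. STAR, HTSeq, DESeq2 and GRCm38 are named in the submitters' processing notes, with versions not given in the sources used here. The deposited table gives a signal for 14560 genes in 80 livers, which per the file headers is a normalised count. Within each library the deposited values were whole multiples of 1 step, within a tolerance of 0.01 reads, so they are read counts divided by 1 factor per library. The steps gave the depth, and no count model was run.

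The main test was limma 3.58.1 in R 4.3.3 on log2(value + 1), with 8 group means over 40 wild-type livers, a trended variance prior and Benjamini-Hochberg adjustment over 14534 genes with at least 10 normalised counts in at least 5 of these livers. Knockout livers were left out of that fit because an earlier description of these data reports 12 h knockout libraries that stand with the other treatment. The differences between times were contrasts of the same fit, in which the 12 h, 4 h and 24 h changes share no liver. The fit was tested on simulated data. The replicates are separate mice, and the labels give each mouse a number without saying what it stands for. The 12 h CCl4 mice were 3843, 3844, 7891, 7893 and 7894. The 12 h vehicle mice were 7892 (replicate 1), 8006, 8007, 8049 and 8050. A part of what these numbers stand for in the changes was not tested. The p-values measure the spread between mice within groups, pooled over the 8 groups of the 40 wild-type livers.

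The gene lists, the genes named and the choice of these 10 livers were made with earlier results of these data known. Genes were named where they were among the 15 largest rises or falls with no overlap and a mean of at least 100, among the 8 smallest adjusted p of a list in a direction, among the 10 largest differences between times in a direction, or on a short list of reference genes. Asns, Lcn2 and Nupr1 fall outside this rule and were chosen after their values were seen. A few genes that the rule names are not reported here. Alternatives covered the pseudocount, the filter, the livers fitted, the normalisation, a replicate block and each liver left out, and 3 settings were added after seeing the data. Promoter windows and symbols came from RefSeq, and positions from GENCODE M21, which placed 14550 of the genes. Figures were drawn with matplotlib 3.10.9.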

Additional observations from a re-analysis of the deposited data

Results flagged for a closer look

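In 122 checks of a gene in a group of 5 livers, 27 had 1 liver far from the other 4 by Dixon's criterion. Of these 12 were vehicle replicate 1 and 10 were CCl4 replicate 2, the livers that stood apart in acute phase and lipid genes. The checks used normalised counts, not their logarithms, of genes chosen for this text. The count of 27 can therefore not be set against a rate by chance. Vehicle replicate 1 was the high liver of its group for the stress genes Sprr1a (1908 normalised counts), Atf3 (555), Ddit3 (552), Srxn1 (4738), Hspa8 (50989), Hspe1 (5524), Gdf15 (245) and Myc (372), and for Abcc4 (168), Irx1 (23.6), Phgdh (40.9) and Ccnd1 (7504). CCl4 replicate 2 was high for the hepatocyte genes Alb (2381932), Cps1 (128738), Cyp7a1 (2134), Aadat (1153) and Oat (3968) and for Arntl (1030.5) and Ccnd1 (7349), and low for Acot2 (686), Ndrg1 (7086) and Plin2 (37629.5). The other livers apart from their group were CCl4 replicate 1 for Krt19 (1536) and Ly6c2 (281), CCl4 replicate 3 for Sprr1a (77675), CCl4 replicate 5 for Gbp2 (2439) and vehicle replicate 2 for Rrad (95.5).

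Other results drew attention because the change at 12 h differed from that at a neighbouring time by the test of the difference itself. Against 4 h the log2 change was higher at 12 h for Cpe (6.93), Ciart (6.82), Gsta1 (5.38), Abcc4 (5.06), Phgdh (4.95), Aldh1l2 (4.74), Hhipl1 (4.56), Cdkn1c (3.82) and Myc (2.67). It was lower at 12 h for Sult3a2 (-7.31), Cyp3a16 (-7.03), Fgf21 (-5.86), Slc34a2 (-5.73) and Cdkn1a (-5.58). Against 24 h it was higher at 12 h for Hhipl1 (4.69), Cdkn1c (4.20), Rrad (4.14) and Cdcp1 (4.08), and lower for Emp1 (-4.13), Tagln (-3.33), Onecut1 (-2.72) and Fabp5 (-2.63).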

How the results depend on the processing

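The count of 8548 genes changed at 12 h was 7029 to 8898 over all alternatives run, and 7838 to 8663 over the 10 fits that left out 1 liver. The count changed by at least 2-fold was 3653 to 4472 over those fits. The difference from 4 h gave 3847 to 5197 genes and that from 24 h 1285 to 2376 over 20 fits each, the lowest without CCl4 replicate 3 of 12 h and the highest without CCl4 replicate 2. The difference from 24 h, 1980 genes, gave 1180 with all 80 livers in the fit, 1227 with the compared groups alone and 2692 without the 2 livers that stood apart; the cause was not tested. Scaling to the library total turned the split from 49.6% to 78.8% risen among changed genes. With a replicate block 8511 genes changed, 4560 differed from 4 h and 1938 from 24 h. Same-numbered livers correlated at -0.105, -0.163, 0.117, 0.209 and -0.007 in their deviations from the group means. Differently numbered livers correlated at -0.227 to 0.342. So few pairs cannot decide whether the numbers pair the mice. The 2 planned count-model alternatives were not run.

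Znrf3, named without a value, is left out of the following counts. Of 232 named changes that passed, 228 or more also passed under each alternative except the mean filter, which tested 222 of them and kept all, the fit without CCl4 replicate 3 (227) and scaling to the library total (218). Most of these genes were named for a small adjusted p or a large change in the main fit. Their counts therefore do not measure how far unnamed changes hold. The values that changed direction were those of genes that had not passed, and of Gclm. On the library-total scale Adamts12 was at 0.10, Gclm at 0.14, Hba-a1 at 0.25, Lrat at 0.24 and Tagln at 0.48, and with quantile normalisation Tagln was at 0.13. With 1 liver left out Ccnd1 ranged from -0.21 to 0.55, Cd3e from -0.11 to 0.30, Hba-a1 from -0.84 to 0.22, Lcn2 from -1.74 to 0.31, Mt1 from -0.43 to 1.14, S100a8 from -0.50 to 0.83, Tagln from -0.73 to 0.34 and Timp1 from -0.57 to 0.99. Without the mice numbered below 7000 Ccnd1 was at -0.35, Cd3e at -0.20 and Lcn2 at 0.43. Without vehicle replicate 1 of 4 h and 12 h Mt1 was at -0.43, S100a8 at -0.50, Timp1 at -0.57 and Tagln at 0.29. Without the 2 livers that stood apart S100a8 was at -0.38, Timp1 at -0.28 and Tagln at 0.08.

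Vehicle replicate 1 and CCl4 replicate 2 are each 1 of only 5 livers of a group. Depth limits genes near the floor of 3 reads, such as Sprr1a and Irx1 in vehicle livers, whose changes depend on the added 1. The injection hour is not given, and whole liver does not separate cell number from RNA per cell.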
